A study of Homo sapiens with 9 samples.

Results

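The distal part of the long arm of human chromosome 9, chiefly band 9q34, was described outside the stretch from ABL1 to NUP214. All γH2AX regions with a midpoint between 127 and 140.2 Mb of chromosome 9 in build hg19 were taken, leaving out midpoints from 133.5 to 134.2 Mb. This gave 3691 of the 234983 regions called in 8 libraries, over 12.5 Mb of sequence, which was cut into 26 windows of at most 500 kb. The limits were set by position alone. The interval is called 9q34 here for short, although by general knowledge of hg19 it begins proximal to that band and ends short of the tip of the arm.

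γH2AX was mapped by chromatin immunoprecipitation and sequencing in K562, an established human line from a chronic myelogenous leukaemia, to ask how the loss of FANCL acts on DNA damage and differentiation of blood cells. The 4 groups held 2 γH2AX libraries each: FANCL knockout (KO) cells given PMA, KO cells given a mock treatment, wild-type (WT) cells given PMA, and WT cells given a mock treatment. PMA was used at 5 nM, and PMA and mock treatments lasted 72 h. A single input library, from WT mock cells, served as the background of all 8 libraries, so a copy-number difference between KO and WT cells cannot be told apart from a difference in γH2AX. The labels do not give the number of KO clones and do not say whether the 2 libraries of a group were grown as separate cultures, so a p-value here reflects how far such libraries vary, and part of that may be technical. FANCL itself was not measured, and the genotype rests on the labels.

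γH2AX is the histone variant H2AX phosphorylated by damage-response kinases on both sides of a DNA break or a stalled replication fork, where it can spread over long stretches of chromatin. FANCL is the ubiquitin ligase subunit of the Fanconi anaemia core complex, which marks FANCD2 and FANCI during the repair of DNA crosslinks and of stalled forks. PMA is a phorbol ester that activates protein kinase C and drives K562 cells towards the megakaryocytic lineage. The 9q34 band is gene-dense, and in K562 cells its ABL1 to NUP214 stretch is amplified together with the BCR-ABL1 fusion, which is why that stretch was kept apart. Genes are named below from general knowledge of hg19, to orient the reader, and not from an annotation of the deposited regions.

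Promoters of 2 genes are shown because in KO PMA one lies in a window of high and the other in a window of no γH2AX coverage. NOTCH1, a receptor of cell-fate signalling, lies in the window from 139 to 139.5 Mb, which held a region over 19 kb long in both KO PMA libraries. PBX3, a homeodomain partner of HOX proteins, lies in the window from 128.5 to 129 Mb, where 7 of 8 libraries had no region. Each stretch runs from 250 bases before to 50 after the gene's start (RefSeq, GRCh38.p14), and capitals mark CG dinucleotides. In that build the NOTCH1 stretch is chr9:136545999-136546298 on the minus strand and the PBX3 stretch is chr9:125747933-125748232 on the plus strand.
NOTCH1: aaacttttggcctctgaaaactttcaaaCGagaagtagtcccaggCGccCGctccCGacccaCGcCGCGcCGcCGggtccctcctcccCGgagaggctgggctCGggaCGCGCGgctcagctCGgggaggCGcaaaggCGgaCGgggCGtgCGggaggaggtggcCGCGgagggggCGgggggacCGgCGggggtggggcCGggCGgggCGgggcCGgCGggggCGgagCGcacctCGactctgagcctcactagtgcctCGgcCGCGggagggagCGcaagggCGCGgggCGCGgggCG
PBX3: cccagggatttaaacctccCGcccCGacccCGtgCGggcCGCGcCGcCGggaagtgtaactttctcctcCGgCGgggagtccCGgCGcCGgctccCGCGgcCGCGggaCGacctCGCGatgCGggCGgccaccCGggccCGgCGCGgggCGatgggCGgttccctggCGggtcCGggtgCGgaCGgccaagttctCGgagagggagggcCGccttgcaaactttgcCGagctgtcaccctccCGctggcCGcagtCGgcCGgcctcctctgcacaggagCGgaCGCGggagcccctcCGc
The motif searched was CG, which reads the same on both strands, and 96.0% of the 35116 promoters of this length in the table hold at least 1. The NOTCH1 stretch holds 42 CG and 77% G or C, and the PBX3 stretch holds 43 CG and 76% G or C, against medians of 14 CG and 58.7% over all promoters. More CG than in 94.2% of all promoters stood in the NOTCH1 stretch, and more than in 95.02% in the PBX3 stretch. Both promoters were thus near the top of this range. Whether a called region overlies either stretch was not determined, because the regions are in hg19.

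Sequencing depth was 18.3 and 16.0 M (mega) tags in KO PMA, 17.8 and 15.6 M in KO mock, 27.2 and 17.0 M in WT PMA, and 23.9 and 23.4 M in WT mock. The tag number that a window had to reach followed depth and lay between 5.89 and 7.69 tags per 10 M, so the deeper libraries could call weaker windows. Between 1.39% and 7.96% of a library's tags fell inside regions.

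FANCL knockout libraries carried far more γH2AX-covered sequence in 9q34 than WT libraries, with and without PMA, and the KO PMA libraries carried the most. The interval held 991 and 870 regions in KO PMA, 489 and 523 in KO mock, 284 and 319 in WT PMA, and 99 and 116 in WT mock. Those regions covered 1370 and 1124 kb in KO PMA, 361 and 402 kb in KO mock, 193 and 222 kb for WT PMA, and 57.3 and 65.4 kb for WT mock. As a share of the interval this was 9.98 ± 1.39% in KO PMA, 3.05 ± 0.232% in KO mock, 1.66 ± 0.164% in WT PMA and 0.491 ± 0.0460% in WT mock (SD, n = 2 each). No 2 of the 4 groups overlapped.

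The rest of 9q, 78.9 Mb from 49 Mb onward without the interval and without the ABL1 to NUP214 stretch, did not follow the same order. It was covered over 369 and 299 kb in KO PMA, 153 and 160 kb in KO mock, 508 and 405 kb for WT PMA, and 120 and 79.6 kb for WT mock. Here WT PMA and not KO PMA had the highest values, and KO PMA lay below WT PMA without overlap. Covered length in the interval over covered length in the rest of 9q was 3.74 ± 0.0330 in KO PMA, 2.44 ± 0.102 in KO mock, 0.463 ± 0.119 in WT PMA and 0.649 ± 0.245 in WT mock (SD, n = 2 each). Per base pair, the interval was 23.6 times as densely covered as the rest of 9q in KO PMA, 15.4 times in KO mock, 2.92 times in WT PMA and 4.09 times in WT mock. The length of the rest of 9q counts every position, also any unassembled sequence where no region can be called. Such sequence would make these densities ratios too high, by the same factor in all groups. Every KO library thus lay above every WT library. The ratio was 5.66-fold higher in KO than in WT over both treatments (exact permutation test within treatment, two-sided, p = 0.0556, the smallest that 36 labellings can give). Between KO PMA and WT PMA it differed 8.20-fold and between KO mock and WT mock 3.90-fold (exact permutation p = 0.333 each, the smallest that 6 labellings can give). PMA against mock gave a ratio of 1.06 over both genotypes (exact permutation p = 0.833), a mean of opposite directions. It was 1.53-fold in KO, where the groups were separate (exact permutation p = 0.333, the smallest possible). In WT it was 0.729-fold, where they overlapped (exact permutation p = 0.667). The interaction was 2.10-fold (exact permutation p = 0.556). That test shuffled the genotype labels within treatment, so the difference between KO and WT itself widened the shuffled values. Its p-value therefore could not be small here and does not decide whether there is an interaction.

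**Figure D1:**
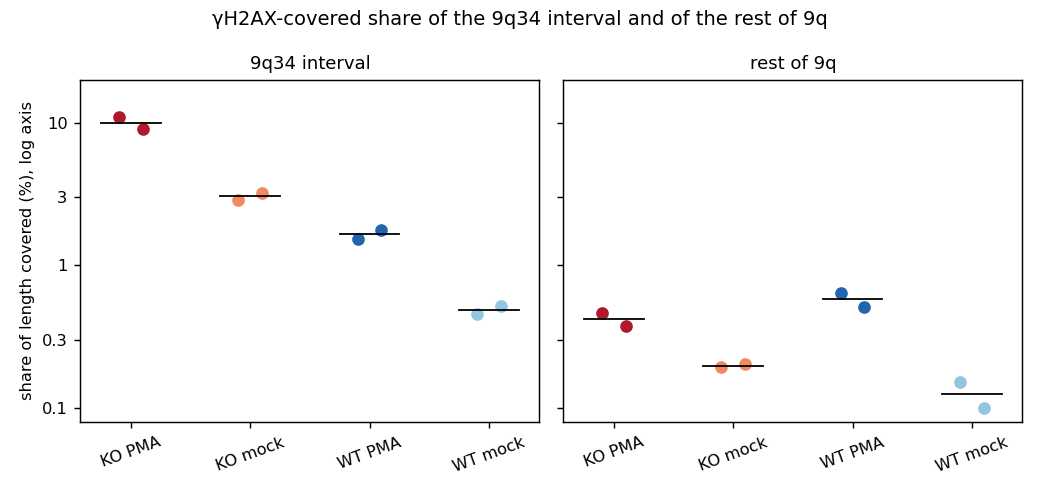
Share of the sequence covered by γH2AX regions (%, log axis) in the 9q34 interval (left) and in the rest of 9q (right). Points are single libraries and lines are group means. The length of the rest of 9q counts every position, also any unassembled sequence. In the interval the 2 KO PMA libraries stand highest, at 10.96% and 8.99%, whereas in the rest of 9q the WT PMA libraries do, at 0.644% and 0.513%.

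Read against stretches of up to the same length, the interval stood out in the genotype comparisons and not in the response of WT cells to PMA. Across 247 stretches of at most 12.5 Mb, the interval ranked 6 by covered length in KO PMA, 12 in KO mock, 45 in WT PMA and 47 in WT mock. The ends of chromosomes, the ABL1 to NUP214 stretch and the pieces of chromosome 9 beside the interval were shorter. Those shorter stretches favour the interval in ranks by covered length. Covered length in KO PMA exceeded that in WT PMA by 2.58 on the log2 scale (SE 0.18, limma adjusted p = 2.85e-06), a direction called in 23.9% of stretches, whose median was -0.98. KO mock exceeded WT mock by 2.62 (SE 0.18, limma adjusted p = 2.84e-06), where 43.7% of stretches were called higher and the median was 0.64. These were the 15th and 18th highest differences of 247.

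With PMA, coverage of the interval rose in both genotypes. WT PMA exceeded WT mock by 1.74 on the log2 scale (SE 0.18, limma adjusted p = 1.79e-05), but 88.7% of all stretches were called higher in that comparison and the median stretch moved by 2.31, so the interval ranked 179 of 247. KO PMA exceeded KO mock by 1.70 (limma adjusted p = 9.66e-05), with 42.9% of stretches called higher, a median of 0.89 and a rank of 25. The interaction, the response in KO minus the response in WT, was -0.04 for the interval (SE 0.25, limma adjusted p = 0.886), against a median of -1.43 over all stretches, 54.7% of which were called lower. When each library was centred on its median stretch, the WT response became -0.82 (adjusted p = 0.0309) and the interaction became 1.75 (adjusted p = 0.00432), so both directions rest on whether the genome-wide rise in coverage is taken out.

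As a share of each library's covered length, the interval held 3.21% and 3.25% in KO PMA, 2.06% and 2.28% in KO mock, 0.613% and 0.890% in WT PMA, and 0.581% and 0.777% in WT mock. The KO and WT libraries did not overlap, whereas WT PMA and WT mock did. The log2 share of KO PMA exceeded that of WT PMA by 2.12 (limma adjusted p = 1.61e-06, 18.6% of stretches called higher) and that of KO mock exceeded WT mock by 1.67 (limma adjusted p = 2.27e-05, 28.3%). For WT PMA against WT mock it was 0.12 (limma adjusted p = 0.599). For KO PMA against KO mock it was 0.57 (limma adjusted p = 0.0474, 8.91% of stretches called higher), a call that was lost when any 1 KO library was left out.

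Coverage within 9q34 was concentrated in a pair of blocks in KO PMA. The blocks, whose limits were chosen after the values were seen, ran from 130 to 132.5 Mb and from 139 to 140.2 Mb and made up 20% and 9.6% of the interval's length. The 130 to 132.5 Mb block held 46.6 ± 0.793% of the covered length in KO PMA, 39.9 ± 2.57% in KO mock, 44.5 ± 2.93% in WT PMA and 48.9 ± 5.28% in WT mock (SD, n = 2 each). KO mock had the lowest share, and the other 3 groups overlapped. The 139 to 140.2 Mb block, at the distal end of the interval, held 38.1 ± 0.711% in KO PMA, 29.9 ± 0.219% in KO mock, 6.76 ± 0.922% in WT PMA and 15.3 ± 9.55% in WT mock. There the KO groups lay above the WT groups, the WT mock libraries differed widely from each other, and in WT PMA the block held less than its share of the length. The 134.2 to 139 Mb part between the left-out stretch and this block, 38.4% of the length, held 8.02 ± 0.0392% in KO PMA, 21.2 ± 2.85% in KO mock, 14.6 ± 4.94% in WT PMA and 13.7 ± 1.34% in WT mock. The 132.5 to 133.5 Mb part, 8% of the length, held 4.47 ± 0.199% in KO PMA, 5.46 ± 0.976% in KO mock, 12.4 ± 0.429% in WT PMA and 8.65 ± 1.14% in WT mock. The first 3 Mb, from 127 to 130 Mb, went the other way by share, with 2.81 ± 0.156% in KO PMA, 3.46 ± 0.476% in KO mock, 21.7 ± 6.52% in WT PMA and 13.5 ± 4.46% in WT mock. A lower share was not always a lower covered length. This part held 35.1 kb in KO PMA against 44.2 kb in WT PMA, where libraries overlapped. In mock cells it held 13.3 kb in KO against 8.15 kb in WT. The 132.5 to 133.5 Mb part held 55.6 kb in KO PMA against 25.7 kb in WT PMA.

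**Figure D2:**
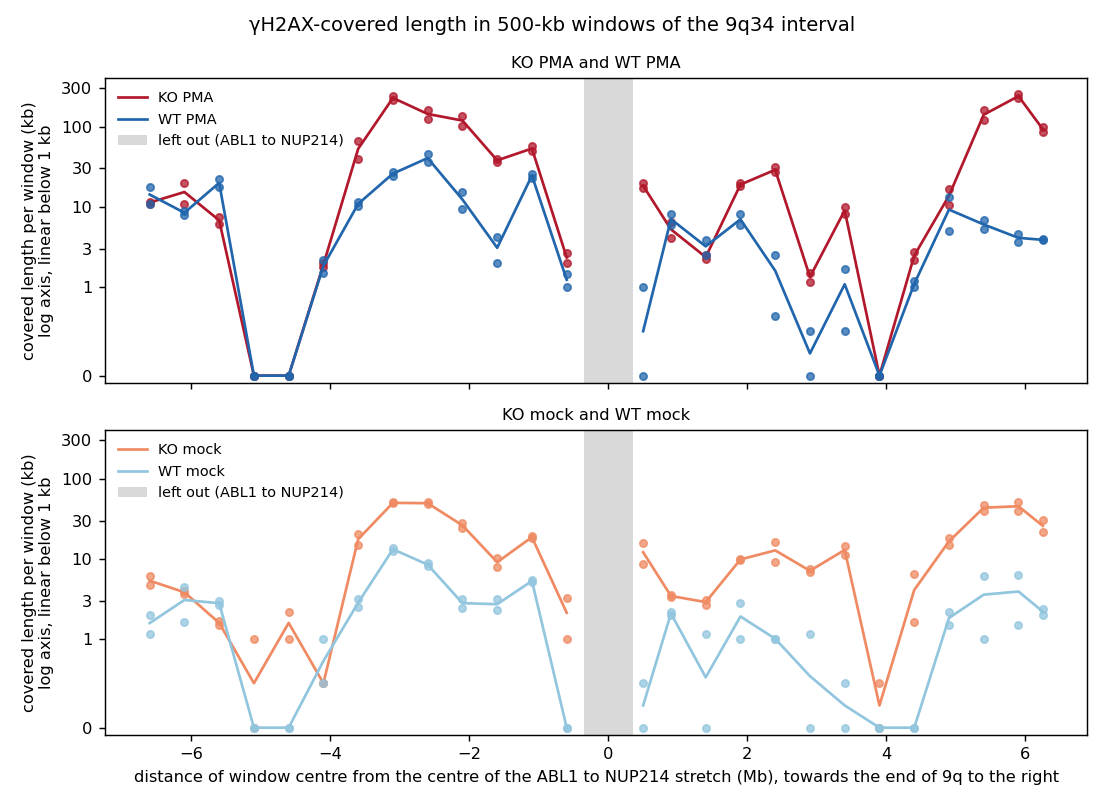
Covered length (kb, log axis that is linear below 1 kb) of each window against the distance of its centre from the centre of the ABL1 to NUP214 stretch (Mb). Points are libraries, lines are group means, and the grey band is the stretch left out. KO PMA forms peaks of 228 and 240 kb on the 2 sides, and in the right-hand peak WT PMA stays below 7 kb.

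By group mean, the most covered windows of KO PMA were 139.5 to 140 Mb with 240 ± 21.4 kb and 130.5 to 131 Mb with 228 ± 21.5 kb (SD, n = 2 each). They differed from each other by less than the spread between libraries, and ranked 8 and 11 among 3675 windows of the genome. Next came 131 to 131.5 Mb with 144 ± 27.6 kb and 139 to 139.5 Mb with 141 ± 25.9 kb, ranks 37 and 41, which also overlapped. At the other end, the windows from 128.5 to 129 Mb and from 137.5 to 138 Mb each had a region in only 1 library, a KO mock one, and could not be tested. The order of the 26 windows by covered length was close between replicates (Spearman rho 0.99 in KO PMA, 0.96 in KO mock, 0.95 in WT PMA and 0.79 in WT mock). Between groups rho was 0.92 for KO PMA and KO mock, 0.85 for WT PMA and WT mock, 0.67 for KO PMA and WT PMA, and 0.72 for KO mock and WT mock. These are descriptions across windows that share their libraries and their neighbours.

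Of the 26 windows, 24 were covered in at least 2 libraries and were tested among 3158 windows of the genome. A window could pass that filter through the KO libraries alone. In KO PMA against WT PMA, 13 of the 24 were called higher, against 15.9% of all windows tested, and 1 was called lower, against 32.9%. The median log2 difference was 1.21 in the interval and -0.50 over all windows. All log2 differences of windows are of covered length plus 1000 bp, a scale that understates changes of little-covered windows.

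The largest differences between KO PMA and WT PMA stood at the distal end of the interval. From 139.5 to 140 Mb, a gene-dense window that includes TRAF2, an adaptor of tumour necrosis factor receptors, and PTGDS, a prostaglandin D synthase, regions covered 255 and 225 kb in KO PMA, against 3.63 and 4.53 kb in WT PMA. KO mock had 39.4 and 51.0 kb there, against 1.5 and 6.28 kb in WT mock. The KO libraries were all above the WT libraries, with log2 differences of 5.57 under PMA (SE 0.50, limma adjusted p = 0.000993) and 3.42 under mock (SE 0.50, limma adjusted p = 0.00436).

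From 139 to 139.5 Mb, the window of NOTCH1, regions covered 159 and 123 kb in KO PMA, against 6.74 and 5.24 kb in WT PMA. The KO mock libraries had 47.0 and 39.8 kb, against 1.0 and 6.11 kb in WT mock. Genotypes did not overlap within either treatment, and the log2 differences were 4.34 under PMA (SE 0.58, limma adjusted p = 0.00301) and 3.55 under mock (SE 0.58, limma adjusted p = 0.00673). In the last 200 kb of the interval, from 140 to 140.2 Mb, where GRIN1 codes for an NMDA receptor subunit, coverage was 100 and 85.9 kb in KO PMA, against 3.92 and 3.78 kb in WT PMA. In mock cells it was 21.2 and 30.2 kb in KO, against 2.37 and 2.0 kb in WT. The log2 difference under PMA was 4.27 (SE 0.22, limma adjusted p = 0.000476) and again no KO library reached down to a WT library. Distal to the interval, from 140.2 Mb to the end of the chromosome, which was counted with the rest of 9q, regions covered 81.1 and 57.9 kb in KO PMA, 31.9 and 46.1 kb in KO mock, 21.4 and 25.2 kb for WT PMA, and 10.1 and 12.7 kb for WT mock. The KO libraries stood above the WT libraries there too.

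The single window lower in KO PMA than in WT PMA lay near the start of the interval, from 128 to 128.5 Mb, where MAPKAP1 codes for a subunit of the mTORC2 kinase complex. It held 7.5 and 6.0 kb in KO PMA, against 22.1 and 17.6 kb in WT PMA (log2 difference -1.43, SE 0.22, limma adjusted p = 0.00465). KO mock had 1.5 and 1.65 kb there and WT mock 2.92 and 2.63 kb. The difference relative to the median of all windows was smaller, at -0.53 after centring, and was then no longer called. Centring each library on its median window gave 19 windows higher, against 34.4% of all windows tested, and 0 lower, against 14.7% (limma, 0 lower at an unadjusted p under 0.05).

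Without PMA, KO cells were also higher along most of 9q34. In KO mock against WT mock, the windows called higher were 19 of 24, against 26.5% of all windows tested, and 0 were called lower, against 5.07% (limma, 1 window lower at an unadjusted p under 0.05). The median log2 difference was 2.06 in the interval and 0.29 over all windows. Centring gave 16 windows higher, against 19% of all windows tested, and 0 lower, against 12.6% (limma, 1 lower at an unadjusted p under 0.05). Of the 19 uncentred calls, 1 is the window from 129 to 129.5 Mb, which passed the filter through the KO mock libraries alone and so had to differ. Besides windows at the distal end, the rule for naming windows took 137 to 137.5 Mb, where RXRA codes for a retinoid X receptor and WDR5 for a subunit of histone methyltransferases. Coverage there was 11.3 and 14.5 kb in KO mock, against 0 and 0.5 kb in WT mock (log2 difference 3.49, SE 0.39, limma adjusted p = 0.00198). With PMA the same window had 9.87 and 8.11 kb in KO, against 0.5 and 1.65 kb in WT.

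**Figure D3:**
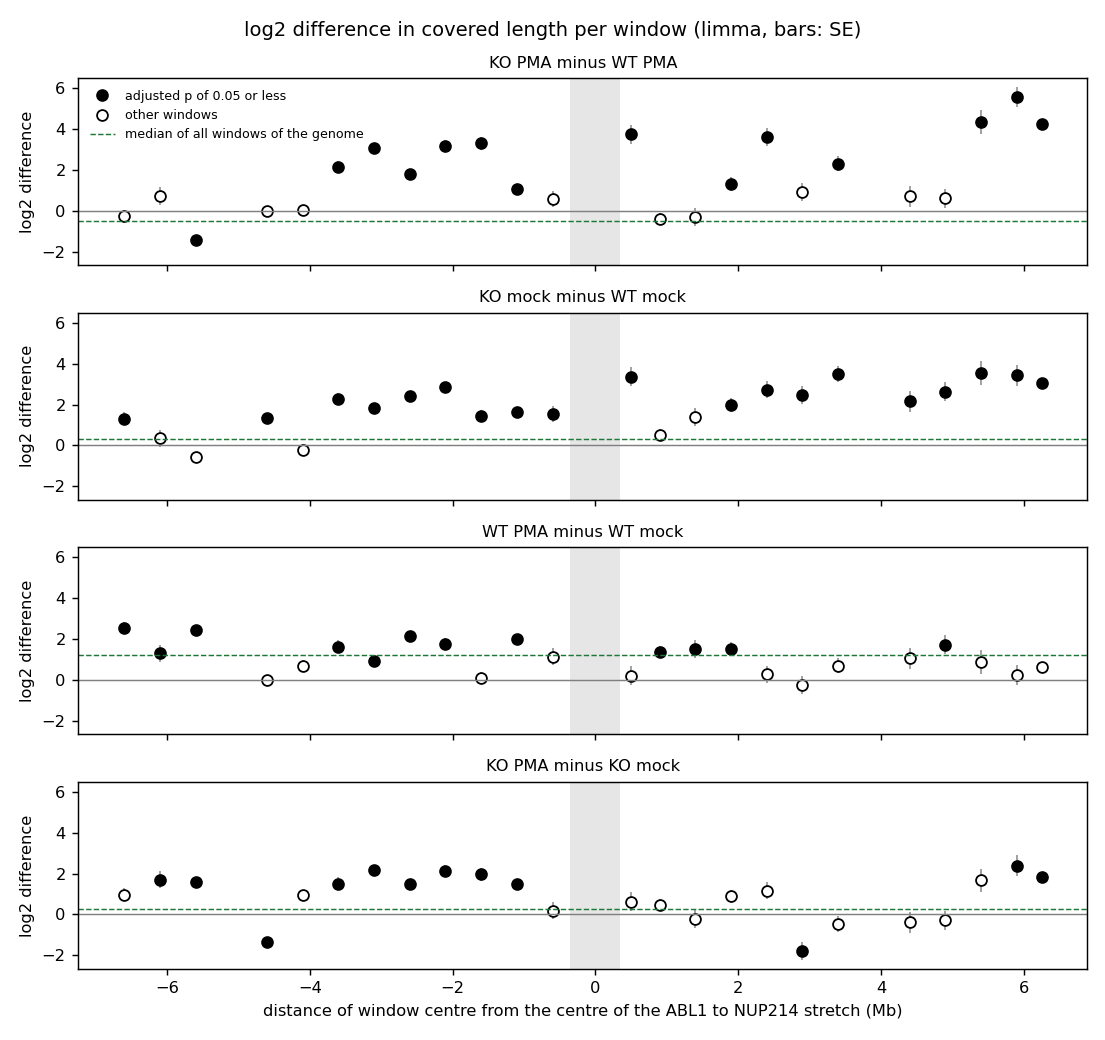
log2 difference in covered length of each tested window, with SE bars, for the 4 comparisons, against the distance from the centre of the ABL1 to NUP214 stretch (Mb). Filled points passed an adjusted p of 0.05 in limma, and the dashed line is the median of all 3158 windows tested. The genotype comparisons stand above the dashed line along most of the interval, up to 5.57 near its distal end, whereas WT PMA minus WT mock scatters around it.

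PMA raised coverage in WT cells over much of the genome, and 9q34 did not exceed that. WT PMA against WT mock had 12 of 24 windows higher, against 54.3% of all windows tested, and 0 lower, against 1.99% (limma, 0 lower at an unadjusted p under 0.05). The median log2 difference was 1.10 in the interval and 1.22 over all windows. After centring, 0 windows were higher, against 10.4% of all windows tested (limma, 2 higher at an unadjusted p under 0.05), and 7 were lower, a share close to the 29.8% of all windows. The uncentred rises were largest at the start of the interval. From 127 to 127.5 Mb, where NR5A1 codes for a steroidogenic nuclear receptor, WT PMA had 17.6 and 10.7 kb, against 1.14 and 2.0 kb in WT mock (log2 difference 2.54, SE 0.31, limma adjusted p = 0.00235). The window from 128 to 128.5 Mb followed with 2.46 (limma adjusted p = 0.00139) from the values given above. From 131 to 131.5 Mb, where SET codes for a histone chaperone, WT PMA had 36.01 and 44.9 kb, against 8.77 and 8.09 kb in WT mock (log2 difference 2.13, limma adjusted p = 0.00139). None of these 3 calls remained after centring.

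In KO cells, too, coverage was higher with PMA in part of the windows. KO PMA against KO mock had 10 of 24 windows higher, against 15% of all windows tested, and 2 lower, against 6.02%. The median log2 difference was 1.07 in the interval and 0.26 over all windows. Centring gave 11 higher, against 15.9% of all windows tested, and 2 lower, a share close to the 9.85% of all windows. Without KO PMA replicate 1 the windows called higher were 4, without KO mock replicate 1 they were 6, and without KO mock replicate 2 they were 5, while the windows called lower were 0 without any 1 of the 4 KO libraries. The 139.5 to 140 Mb window rose by 2.39 (SE 0.50, limma adjusted p = 0.0253), a call that leaving out single libraries ended in 4 of 8 cases. From 130.5 to 131 Mb, home of ENG, a transforming growth factor beta co-receptor, and of CIZ1, a DNA replication factor, KO PMA had 244 and 213 kb, against 50.4 and 49.3 kb in KO mock. The WT libraries had 24.3 and 27.5 kb with PMA, against 12.6 and 13.6 kb with mock. That window's log2 difference in KO cells was 2.17 (SE 0.14, limma adjusted p = 0.00393), and all 4 groups were separate.

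From 131.5 to 132 Mb, where NUP188 codes for a nuclear pore protein and CRAT for carnitine acetyltransferase, KO PMA had 136 and 102 kb, against 23.9 and 28.2 kb in KO mock (log2 difference 2.14, SE 0.28, limma adjusted p = 0.00651). The 2 windows called lower held at most 7.38 kb in these groups. From 136.5 to 137 Mb, where VAV2 codes for a guanine nucleotide exchange factor and BRD3 for a bromodomain protein, KO PMA had 1.15 and 1.5 kb, against 7.38 and 6.74 kb in KO mock (log2 difference -1.80, limma adjusted p = 0.0405). From 129 to 129.5 Mb, where LMX1B codes for a LIM homeodomain factor, KO PMA had no region, against 1.0 and 2.16 kb in KO mock. That window had no region in the WT libraries either and passed the filter through KO mock alone, so it had to differ, and its call carries no weight.

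The response to PMA differed between the genotypes in few windows. The interaction was called higher in 3 of 24, against 2.44% of all windows tested, and lower in 1, against 21.9%. The median interaction was -0.59 in the interval and -0.89 over all windows, and centring gave 7 higher, against 17.2% of all windows tested, and 0 lower, against 2.63% (limma, 0 lower at an unadjusted p under 0.05). The windows higher were 132 to 132.5 Mb (1.87), 130.5 to 131 Mb (1.24) and 140 to 140.2 Mb (1.22), and the window lower was 129 to 129.5 Mb, covered in KO mock alone. Leaving out single libraries ended most of these calls.

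Wide regions made up most of the excess in KO PMA. The median width was 677 and 696 bp in KO PMA and 500 bp, the smallest width of the caller, in each of the other 6 libraries. Regions of at least 1 kb were 36.2% and 34.5% of those in KO PMA, 14.7% and 16.1% in KO mock, 9.15% and 10.0% in WT PMA, and 2.02% and 0% in WT mock. At 5 kb or more there were 40 and 26 regions in KO PMA, 1 and 0 in KO mock, 0 and 2 in WT PMA, and 0 in both WT mock libraries. KO PMA thus stood apart from every other group by width. The rest of 9q had only 3 and 1 such regions in KO PMA, with a median width of 500 bp. The median width in the interval was 1.37-fold that of WT PMA in KO PMA, and 1.37-fold that of KO mock (exact permutation p = 0.333 for each, the smallest possible).

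**Figure D4:**
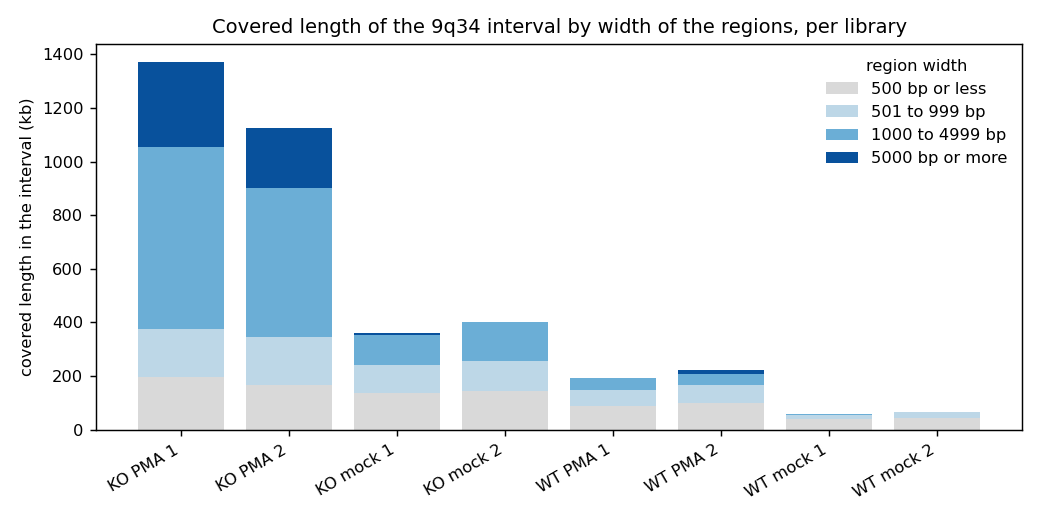
Covered length of the 9q34 interval (kb) in each library, split by the width of the regions. In the KO PMA libraries regions of at least 1000 bp make up most of the bar, and regions of at least 5 kb alone cover 315 and 222 kb.

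The widest regions called in both libraries of a group were long at the same places. In KO PMA they were chr9:139410006-139429403 in replicate 1 (19397 bp, 3.38-fold over input) and the overlapping chr9:139413961-139432972 in replicate 2 (19011 bp, 3.28-fold), in the window of NOTCH1. The other was chr9:130928206-130943580 in replicate 1 (15374 bp, 2.95-fold), overlapped by chr9:130924330-130945925 in replicate 2 (21595 bp, 2.81-fold). Folds of single regions are the authors' values. Of the 19397 bp of the first region, KO mock regions covered 4.80 and 3.79 kb, WT PMA regions 0.798 and 0 kb, and WT mock regions 0.5 and 1.0 kb. Of the 15374 bp of the second, KO mock regions covered 9.81 and 9.42 kb, WT PMA regions 6.47 and 8.16 kb, and WT mock regions 4.39 and 2.98 kb. The first region was therefore long in KO PMA alone, with short stretches called in other groups, whereas the region near 131 Mb was in part called in all 8 libraries. The widest reproducible regions of KO mock, WT PMA and WT mock included this second place too, at 4362 bp, 3550 bp and 882 bp for the narrower of the 2 libraries.

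Regions with the highest fold were short and weak in tags. They were ranked among regions called in both libraries of a group, by the lower of the 2 folds. The first by this rank in KO PMA, chr9:131244262-131244762 in replicate 1, was 500 bp wide with 8.15-fold, the lower fold, and 8.76 tags per 10 M. In WT PMA, chr9:131892240-131892740 in replicate 1 reached 30.1-fold with 8.09 tags per 10 M, in a library whose tag threshold was 5.89. Its lower fold, in replicate 2, was 17.5. The lower fold of the first region was 15.5 in KO mock and 5.82 in WT mock. Without the condition that both libraries call a region, the highest folds in KO PMA were 28.5 and 41.8. The median fold of all regions was 3.89 and 4.02 in KO PMA, 4.01 and 4.17 in KO mock, 4.56 and 4.75 in WT PMA, and 4.4 and 4.44 in WT mock. Among regions of at least 5 kb in KO PMA it was only 3.37 and 3.29. With regions of at least 6-fold alone, the interval held 93.48 and 81.41 kb in KO PMA and 48.99 and 60.07 kb in WT PMA. It held 35.76 and 54.34 kb in KO mock and 14.54 and 12.32 kb in WT mock. KO libraries thus stayed above WT libraries within each treatment, but KO mock overlapped WT PMA. With these regions, 23 windows of the interval were tested. Of these, 4 were called higher in KO PMA against WT PMA, against 6.46% of the 2785 windows tested, and 2 in KO mock against WT mock, against 4.52%.

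Input tags inside the called regions were not the same everywhere. They averaged 5.83 ± 0.0169 per kb and 10 M tags in KO PMA, 5.39 ± 0.0728 in KO mock, 4.64 ± 0.407 in WT PMA and 4.20 ± 0.239 in WT mock (SD, n = 2 each). In the rest of 9q they averaged 4.86 ± 0.0379 in KO PMA, 4.35 ± 0.236 in KO mock, 3.81 ± 0.329 in WT PMA and 4.09 ± 0.169 in WT mock. In the ABL1 to NUP214 stretch they were between 20.2 and 24.7 by group. The 2 windows from 130.5 to 131.5 Mb held the most within the interval, with 6.90 and 8.36 in KO PMA, 7.86 and 8.69 in KO mock, 7.36 and 7.84 in WT PMA, and 6.61 and 5.44 in WT mock. Near the distal end, from 139.5 to 140 Mb, the values were 5.63 in KO PMA, 4.54 in KO mock, 2.59 in WT PMA and 2.97 in WT mock. All groups share the single input library, so a group's value depends on which base pairs its libraries called and is not a separate measurement of that group. The part of input in the differences between groups was not tested. Left without the windows from 130.5 to 131.5 Mb, a choice made after seeing the data, the interval-to-rest ratio was 6.14-fold higher in KO than in WT (exact permutation p = 0.0556), as large as with them. Whether the KO cells carry more copies of 9q34 than the WT cells cannot be told apart from these lists.

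Calls in 9q34 were repeated between libraries most often in KO PMA when all regions were counted, but not among regions of at least 6-fold. A region was counted as called again when the other library of its group held a region sharing at least 1 bp. This held for 1059 of 1861 regions in KO PMA (56.9%), 349 of 1012 in KO mock (34.5%), 164 of 603 in WT PMA (27.2%) and 29 of 215 in WT mock (13.5%). A place called in both libraries enters these counts from each of them, so the regions are not independent and no interval is given. In the rest of 9q the shares were 28.8% in KO PMA, 20.3% in KO mock, 27.1% in WT PMA and 13.8% in WT mock. The interval thus exceeded the rest of 9q in the KO groups and differed from it by under 1 percentage point in the WT groups, with 1 value per group and no test. Denser coverage and wider regions make a shared base pair likelier by position alone. The share to be had from that was not computed, so these shares do not compare groups or areas at equal coverage. Base pairs called in both libraries over those called in either were 0.405 in KO PMA, 0.160 in KO mock, 0.124 in WT PMA and 0.0615 in WT mock.

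Reproducibility moved with coverage and width. In KO PMA 86.9% of the regions of at least 1 kb were called again, against 31.0% of those of 500 bp. By window, the highest shares in KO PMA were 80.0% from 140 to 140.2 Mb, 77.3% from 139.5 to 140 Mb and 74.2% from 130.5 to 131 Mb. In WT PMA they were 14.3%, 13.3% and 44.4% in the same windows. From 128 to 128.5 Mb, the window called lower in KO PMA, none of 25 regions was called again in KO PMA, against 23.9% of 67 in WT PMA. Windows with few regions give coarse shares, and no test was made.

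**Figure D5:**
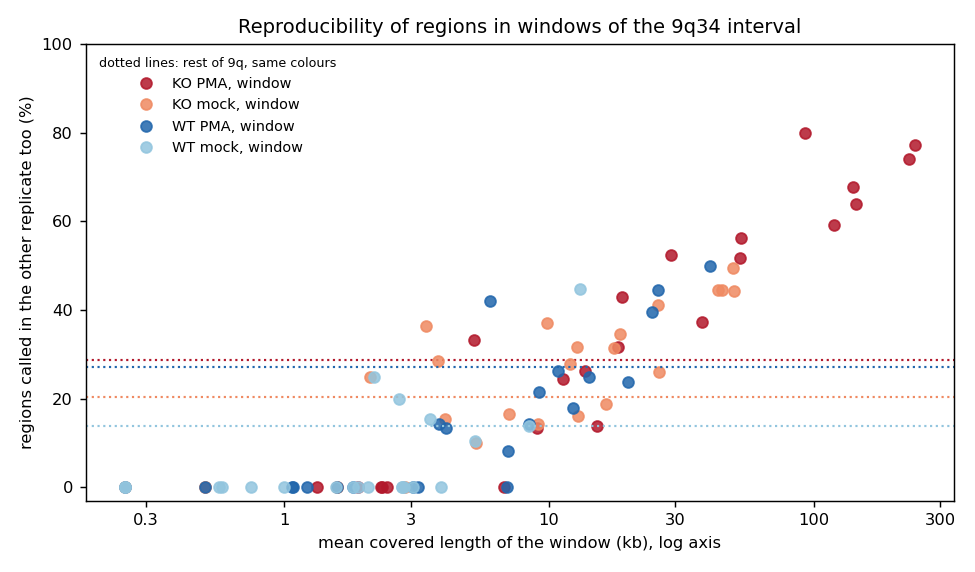
Share of a window's regions called in the other library of the group too (%) against its mean covered length (kb, log axis), 1 point per window and group. Dotted lines give the same share in the rest of 9q. Windows above 100 kb, all of KO PMA, reach 59.2% to 77.3%.

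Merged over all libraries, the regions of 9q34 formed 1759 separate places, of which 1044 were called in a single library and 8 in all 8. Of those 8 places, 7 lay between the positions 130922760 and 131100506, in the windows with the most input tags, and 1 was chr9:139407517-139433205 in the window of NOTCH1. Overlapping regions were joined in a chain, so the libraries of a place need not share a base pair. Inside the 19397-bp KO PMA region of this last place, WT PMA replicate 2 had no called sequence. All 4 KO libraries and no WT library called 61 places, 35 of them from 139 Mb onward. They were 3.47% of the places of the interval, against 0.244% in the rest of 9q (5 of 2046) and 1.09% of the 138300 places of all chromosomes. All 4 WT libraries and no KO library called 0 in the interval, against 3 in the rest of 9q and 0.153% of all places. Since the KO libraries cover more, the 2 counts are not on an equal footing.

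Regions called in both libraries of a group numbered 510 in KO PMA, 177 in KO mock, 81 in WT PMA and 14 in WT mock, counted in replicate 1. Of the 177 of KO mock, 88.7% overlapped a region of at least 1 KO PMA library, and of the 510 of KO PMA, 56.9% overlapped one of KO mock. Most KO mock places were thus called with PMA too. Of the 510 of KO PMA, 27.1% overlapped a region of at least 1 WT PMA library, and of the 81 of WT PMA, 67.9% overlapped one of KO PMA. The lists differ in length and in covered sequence, which sets how often they can overlap.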

How the data were processed

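The deposited region lists of 8 γH2AX ChIP-seq libraries were used. CASAVA 1.4, BWA, HOMER and build hg19 are named in the submitters' processing notes. Regions were called by the authors in each library, per the file headers, with the WT mock input (18.6 M tags) as background, from 500-bp windows past a Poisson tag threshold of 0.001, at least 2-fold over input and with a Poisson p of 0.0001 over input, counting at most 1 tag per base pair. The deposited signal is tags per 10 M. Tags in region are deposited as counts scaled to the input depth in 3 libraries and unscaled in 5. Input tags are unscaled in those 3 libraries and scaled to the depth of the γH2AX library in the other 5. The deposited fold is the ratio of tags to input, the deposited p-value and score are HOMER's own, and these last 2 were not used in any test.

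Covered length was computed from these lists. A region belonged to the window holding its midpoint. Windows of 500 kb on chromosomes 1 to 22 and X, covered in at least 2 libraries, entered limma 3.58.1 (R 4.3.3, trended variance) as log2 of covered bp plus 1000, with all 8 libraries in 1 model of 4 groups, with Benjamini-Hochberg adjustment over all windows and a threshold of 0.05, two-sided. Stretches as long as the interval were fitted in the same way, as length and as share. They were shorter at chromosome ends, in the ABL1 to NUP214 stretch and beside the interval on chromosome 9. Single values were compared by exact permutation. Other steps used Python 3.11.15, numpy 2.4.6, pandas 2.3.3, scipy 1.17.1 and matplotlib 3.10.9. The fits were also run on simulated data, with deviations from group means shuffled over all rows and changes added to KO PMA alone. Such data hold no variation shared by a library or by neighbouring windows, so they give no error rate for the real lists.

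The windows named are the 3 with the largest difference in each direction past the threshold in each comparison, and the regions named are those called in both libraries with the highest lower fold or the greatest lower width. Members and lists were chosen with earlier results of these data known. Correlations between the deviations of same-numbered replicates ran from -0.07 to 0.23, with the highest for WT PMA and WT mock. The numbers were taken as names only, and a fit with a replicate block was run as an alternative. Alternatives changed the strength, width, number or tag threshold of regions, the pseudocount, filter, centring, window grid, assignment of regions, overlap, width measure, the sequence compared and the libraries included. Coverage of gene bodies was not analysed here, since an hg19 annotation was not used.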

Additional observations from a re-analysis of the deposited data

Results flagged for a closer look

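In 4 windows, described here for that reason, the difference between KO PMA and KO mock differed from that between WT PMA and WT mock by the interaction term of the limma fit. Of the 4, 3 were higher and 1 was lower.

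From 132 to 132.5 Mb the interaction was 1.87 (SE 0.44, limma adjusted p = 0.0355). Regions covered 36.6 and 39.1 kb in KO PMA, against 7.85 and 10.2 kb in KO mock, and 2.0 and 4.13 kb in WT PMA, against 3.14 and 2.26 kb in WT mock. The KO groups were separate, and the WT groups overlapped. The call was lost in 7 of 8 fits that left out a library, with adjusted p between 0.0359 and 0.104.

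From 130.5 to 131 Mb the interaction was 1.24 (SE 0.20, limma adjusted p = 0.0133), from the values given in the report. Leaving out single libraries gave adjusted p between 0.0333 and 0.0513 and ended the call in 2 of 8 cases. From 140 to 140.2 Mb it was 1.22 (SE 0.30, limma adjusted p = 0.0399), and each of the 8 fits without a library ended the call, as did the replicate block. From 129 to 129.5 Mb it was -1.33, with no region in KO PMA, 1.0 and 2.16 kb in KO mock, and no region in either WT group. That window entered the fit through the KO mock libraries alone, so the value had to be negative and is given as a description. It became 0.02 after centring.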

How the results depend on the processing

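The higher covered length and share of the interval in KO than in WT kept direction and call under every alternative run. The difference in covered length was smaller with regions of at least 6-fold, where KO mock overlapped WT PMA. Counts of called windows that moved by over 1.5 times were as follows, higher before lower where both moved. With regions of at least 6-fold, KO PMA against WT PMA gave 4 and 0, KO mock against WT mock 2 higher, WT PMA against WT mock 7 higher, KO PMA against KO mock 2 and 0, and the interaction 0 and 0. With regions of at least 1000 bp, KO mock against WT mock gave 11 higher, WT PMA against WT mock 4 higher, KO PMA against KO mock 0 lower, and the interaction 2 lower. With 1 tag threshold of 7.69 tags per 10 M, KO PMA against WT PMA gave 0 lower, WT PMA against WT mock 6 higher, and the interaction 1 higher. With 11959 regions per library, KO PMA against WT PMA gave 0 lower, KO mock against WT mock 10 higher, WT PMA against WT mock 3 higher, KO PMA against KO mock 5 and 1, and the interaction 0 lower. Centring gave 0 lower in KO PMA against WT PMA, 0 and 7 in WT PMA against WT mock, and 7 and 0 in the interaction. Shifting windows by 250 kb gave 2 lower in KO PMA against WT PMA, 1 lower in KO mock against WT mock, and 1 and 2 in the interaction. A pseudocount of 100 bp gave 1 lower in KO PMA against KO mock and 1 higher in the interaction, and 10000 bp gave 6 and 3 in the interaction. For the interval, covered length in WT PMA against WT mock was 0.46 with 11959 regions (limma adjusted p = 0.0905) and -0.82 centred, and its interaction was 1.28 with 11959 regions, 0.072 with 10000 bp and 1.75 centred. The share in WT PMA against WT mock was 2.77 with regions of at least 1000 bp, -0.014 with 10000 bp and -0.82 centred. The share in KO PMA against KO mock was 0.14 with 6-fold regions, 0.85 with regions of at least 1000 bp and 0.58 with 100 bp, none of them called, and its interaction was -0.17 with 6-fold regions, -1.92 with regions of at least 1000 bp and 1.75 centred. The log2 ratio to the rest of 9q in WT PMA against WT mock was 0.11 with 11959 regions, and PMA against mock was -0.015 with 9q before the interval only. Median width differences were 0 with 6-fold regions. With 11959 regions they were 0.17 for KO mock against WT mock and 0.33 for WT PMA against WT mock, and as means 0.40 and 0.27. Shares called again with 6-fold regions were 8.92% in KO PMA, 14.0% in KO mock, 11.5% in WT PMA and 0% in WT mock, so KO PMA was no longer highest. With regions of at least 1000 bp they were 67.5% in KO PMA, 25.6% in KO mock, 37.9% in WT PMA and 0% in WT mock. With 1 tag threshold they were 30.8% in KO mock and 20% in WT mock. With 11959 regions they were 49.2% in KO PMA, 25.1% in KO mock and 35.5% in WT PMA, and with an overlap of 50% of the region 43.7% in KO PMA, 24.8% in KO mock and 16.4% in WT PMA. Leaving out 1 library gave from 4 to 12 windows higher and 0 to 2 lower in KO PMA against KO mock, and 0 to 3 higher and 0 to 1 lower in the interaction. It gave an interval interaction from -0.18 to 0.10 in length, a share difference from -0.15 to 0.39 in WT and 0.50 to 0.65 in KO, and a log2 ratio for PMA against mock from -0.12 to 0.28. Among named windows, 128 to 128.5 Mb in WT PMA against WT mock was -0.73 with 11959 regions, 139.5 to 140 Mb in KO PMA against KO mock was -0.046 with 6-fold regions, and 129 to 129.5 Mb had an interaction of 0.018 centred. The cause of these changes was not tested. A fit with the replicate block gave 2 windows higher in the interaction in place of 3 and changed no other count. With regions of at least 1000 bp the ratio and the width had no value, since WT mock replicate 2 held none, and gene bodies were not run. Depth and the tag threshold limit what a library can call, and a window without a region may hold γH2AX below it.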

Other observations

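In bins of 100 kb, 24 of the 125 bins of the interval averaged at least 20 kb of coverage in KO PMA, 2 in KO mock, 2 in WT PMA and 0 in WT mock. The most covered bin of KO PMA was 131 to 131.1 Mb with 77.3 and 63.6 kb, against 23.9 and 32.3 kb in WT PMA, so the groups were separate although WT PMA was also highest there. From 139.8 to 139.9 Mb the contrast was sharper, with 59.2 and 61.3 kb in KO PMA, against no region in either WT PMA library. KO mock had 10.9 and 12.6 kb in that bin, against 0 and 0.5 kb in WT mock. Bins without a region in either library numbered 42 in KO PMA, 32 in KO mock, 45 in WT PMA and 59 in WT mock. KO PMA thus had more coverage than KO mock but also more empty bins. These bins were named after their values were seen, and no test was made on them.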
